A study of Homo sapiens with 12 samples.

Results

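miR-210 was followed here through its 2 mature arms, hsa-miR-210-5p (MIMAT0026475) and hsa-miR-210-3p (MIMAT0000267), which are 2 of the 2565 human miRNA probes on the array and were taken by probe name. The levels come from KYSE150, a long-established line from a human squamous cell carcinoma of the oesophagus, kept in Ham's F12 medium with 2% fetal bovine serum. There were 6 arrays of cells given 100 nM galectin-9 for 6 h, a lectin that binds beta-galactosides, and 6 arrays of control cells without it, for which the labels name no vehicle. All 12 arrays carried Cy5-labelled total RNA, 1 sample per array, from 1 cell line. Whether the numbered samples were separate cultures is not stated in the labels, so the p-values reflect only sample-to-sample spread, part or all of which may be technical. The labels give no oxygen level, and no group was described as hypoxic.

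miR-210 is the best known hypoxia-induced miRNA: hypoxia-inducible factor HIF1A binds upstream of its host transcript MIR210HG when oxygen is scarce. The mature 3p arm is the abundant guide strand, with described targets in mitochondrial iron-sulphur assembly (ISCU), receptor signalling (EFNA3) and the cell cycle (E2F3). The 5p arm is cut from the same precursor and is usually the less stable partner strand. In carcinomas, miR-210-3p is often used as a marker of low-oxygen regions.

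The sequences are shown because the arms differ in seed, the bases that pair with target transcripts, so that a shift between them would change which messages are matched. They are from RefSeq (GRCh38.p14), written 5′ to 3′, with seed bases 2 to 8 in capitals. Below them stands the hairpin with the 5p arm and then the 3p arm in capitals.
miR-210-5p: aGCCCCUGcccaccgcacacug
miR-210-3p: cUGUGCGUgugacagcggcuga
MIR210 hairpin: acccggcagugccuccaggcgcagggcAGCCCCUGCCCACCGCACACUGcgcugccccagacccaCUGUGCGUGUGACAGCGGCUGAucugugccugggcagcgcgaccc

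The hairpin lies on the minus strand at chr11:568089-568198, within the bounds of MIR210HG at chr11:565657-568457. The 5p arm covers chr11:568150-568171 and the 3p arm chr11:568112-568133. Each arm has 22 bases. G and C make up 72.7% of the 5p arm, above the content of 92.5% of mature miRNA names in the table, and 63.6% of the 3p arm, above that of 78.8%. In the minimum free energy fold of the hairpin (-59.5 kcal per mol), 16 of the 22 bases of the 5p arm paired with bases of the 3p arm.

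Neither seed is shared in full: of 2369 other mature names, 0 have the same bases 2 to 8 as either arm. Bases 2 to 7 alone are shared by 1 name for each arm. For the 5p arm this is miR-4749-3p, and for the 3p arm miR-147b-3p, whose name matched no probe and which is not analysed here.
miR-4749-3p: cGCCCCUCcugcccccacag
miR-147b-3p: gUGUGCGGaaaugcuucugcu

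The files were first checked against the stated cell type. All 5 markers of squamous and other epithelium were detected on all 12 arrays, among them miR-205-5p with a mean log2 level of 11.55 in galectin-9 and 11.53 in control cells. Of the 4 blood cell markers 0 were detected on all arrays, but miR-142-3p was on 11, miR-223-3p and miR-144-3p on 6 and miR-451a on 4. Of the 3 muscle markers miR-1-3p was detected on 0 arrays, miR-133a-3p on 5 and miR-206 on 8. The endothelial marker miR-126-3p was detected on all 12 arrays, at 5.41 in galectin-9 and 5.43 in control cells. Of the 3 mesenchymal markers with a probe of their exact name, miR-214-3p was detected on all 12 arrays, at 3.93 in galectin-9 and 4.31 in control cells. The others, miR-143-3p and miR-145-5p, were each detected on 8. A further listed marker, miR-199a-3p, matched no probe by exact name and was not read. The liver marker miR-122-5p was detected on 7 arrays, and the neuronal markers miR-124-3p on 3 and miR-9-5p on 5. The part of these markers in the results was not tested. Detected probes numbered 1551 to 2045 on galectin-9 and 934 to 1895 on control arrays, with the lowest number on control 6. The array file names carry a code and a cell number, which were read here as slide and position on the slide; the labels do not say what they are, and every slide or position value below rests on that reading. So read, each of 3 slides held 2 arrays of each group, with galectin-9 arrays at positions 2 and 4 and control arrays at positions 1 and 3. Treatment and odd or even position then cannot be told apart.

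miR-210-3p was present in every sample and did not pass the test between galectin-9 and control cells. Background-subtracted intensity, in arbitrary units of Cy5 fluorescence on a linear scale, was 39.8 at the lowest, 51.4 at the median and 70.8 at the highest on galectin-9 arrays. On control arrays it was 30.6, 45.7 and 58.6. The ranges overlap, with galectin-9 replicates 1 and 5 above all control arrays and control 5 below all galectin-9 arrays. On each array the signal stood at least 26.8 SD of the blank spots above background, where the detection limit is 2 SD. In order of brightness the probe ranked 155 to 209 on galectin-9 arrays and 180 to 213 on control arrays, among 2565 probes.

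After quantile normalisation the log2 level of miR-210-3p was 5.68 ± 0.30 in galectin-9 and 5.59 ± 0.16 in control cells (SD, n = 6 each). The difference of 0.09 (SE 0.14) corresponds to 1.07-fold, with a 95% interval of 0.865-fold to 1.32-fold (limma adjusted p = 0.807 over 1734 probes). An exact two-sided permutation of the 12 arrays gave p = 0.513, also after adjustment over the arms and their ratio. By unadjusted p the probe ranked 1104 of 1734. Slide by slide, the log2 difference was 0.05 on slide 1, 0.02 on slide 2 and 0.21 on slide 3. On the authors' globally normalised scale, which sets the median of each array's detected probes to 25, miR-210-3p averaged 232 ± 65.3 in galectin-9 and 176 ± 37.4 in control cells (SD, n = 6 each). On that scale the median log2 difference of the probes detected on all arrays was 0.25, and miR-210-3p lay 0.13 above this median, against 0.12 above it on the quantile-normalised scale. Among all probes tested, limma called 0.173% in either direction, namely miR-6131, miR-222-5p and miR-582-5p, all higher. With the replicate number as a block the share was 0.0577%. Groups of 6 without overlap were found for 1.56% of probes, and neither miR-210 arm was among them. Fewer cells with a miRNA and less of it per cell cannot be told apart in RNA of whole cultures.

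miR-210-5p, the partner strand, was dimmer and also detected on all 12 arrays. Its background-subtracted intensity was 7.30 at the lowest, 10.6 at the median and 11.7 at the highest on galectin-9 arrays. On control arrays it was 6.94, 10.9 and 14.2, so that the groups overlap and controls 1, 2 and 3 were above all galectin-9 arrays. The signal lay 8.90 to 13.8 SD of the blanks above background on galectin-9 and 5.20 to 16.1 SD on control arrays. Control 6 gave the lowest margin, which is also the array with the fewest detected probes.

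The log2 level of miR-210-5p was 3.27 ± 0.21 in galectin-9 and 3.45 ± 0.15 in control cells (SD, n = 6 each). The difference of -0.18 (SE 0.12) corresponds to 0.883-fold, with an interval of 0.742-fold to 1.05-fold, and did not pass (limma adjusted p = 0.511). The exact permutation p was 0.123 (adjusted p = 0.370 over 3 tests). The value was lower with galectin-9 in 5 of 6 pairs of equal replicate number, from -0.49 in pair 1 to 0.07 in pair 2. Taken slide by slide, the log2 difference was -0.21 on slide 1, -0.10 on slide 2 and -0.23 on slide 3.

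**Figure D1:**
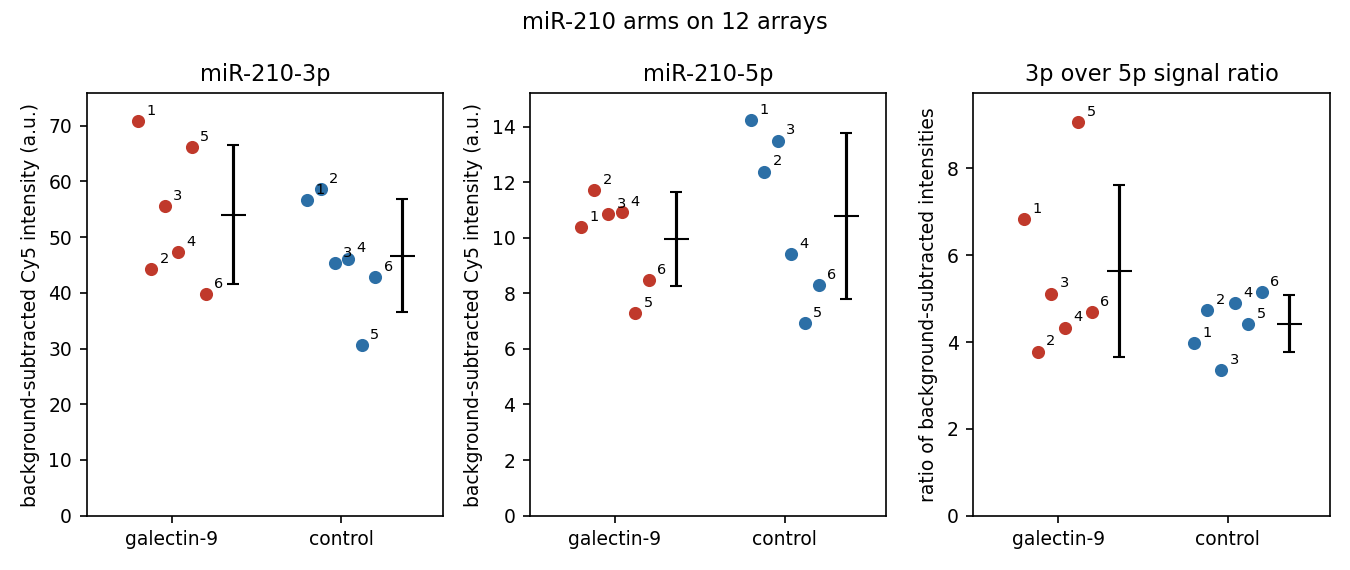
Background-subtracted Cy5 intensity of miR-210-3p (left) and miR-210-5p (middle) and their signal ratio (right) on 6 galectin-9 (red) and 6 control (blue) arrays, with replicate numbers beside the points and bars for mean ± SD. The groups overlap in each panel, and galectin-9 replicates 1 and 5 have the highest ratios, 6.83 and 9.07.

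The ratio of the arms asks whether strand use shifted within the same precursor. The background-subtracted signal of the 3p arm over that of the 5p arm was 3.78 at the lowest, 4.91 at the median and 9.07 at the highest on galectin-9 arrays. On control arrays it was 3.36, 4.57 and 5.16. Only galectin-9 replicates 1 and 5 lay above the control range. Probes differ in affinity, so this is a ratio of signals and not of molecules.

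On the normalised log2 scale the arm ratio was 2.41 ± 0.45 in galectin-9 and 2.14 ± 0.17 in control cells (SD, n = 6 each). The difference was 0.27 (SE 0.20), or 1.21-fold with an interval of 0.894-fold to 1.64-fold, and it did not pass over 473 hairpins with both arms tested (limma adjusted p = 0.674). The exact permutation p was 0.249 (adjusted p = 0.373 over 3 tests). Of these 473 hairpins limma called 0%, with 58 at an unadjusted p under 0.05 (12.3%), of which 27 were higher (5.71%) and 31 lower (6.55%). The ratio was higher with galectin-9 in 4 of 6 pairs. Over all arrays the mean log2 ratio of miR-210 was 2.27, and 38 of the 473 hairpins had a larger one. The 3p arm was the brighter arm in 43.8% of hairpins.

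The arms are cut from the same precursor, and their levels were compared from array to array. Pearson's r between them over the 12 arrays was -0.33, with -0.52 within galectin-9 and 0.41 within control arrays. These values are descriptions over few arrays that share slides and normalisation. By likeness to miR-210-3p among 886 other probes detected on all arrays, the 5p arm ranked 693.

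The level of miR-210-3p was also set against position as read from the file names. At positions 1 and 2 its log2 level was 5.72 to 6.11 with galectin-9 and 5.35 to 5.63 in control cells. At positions 3 and 4 it was 5.39 to 5.51 with galectin-9 and 5.67 to 5.72 in control cells. The groups do not overlap within either set of positions, and they lie in opposite order. This layout was examined after the values were seen.

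In numbers, the log2 difference of miR-210-3p was 0.46 at positions 1 and 2 (replicates 1, 3 and 5) and -0.27 at positions 3 and 4 (replicates 2, 4 and 6), with 3 arrays of each group in each set. By pair it was 0.32, 0.30 and 0.76 for replicates 1, 3 and 5, and -0.21, -0.27 and -0.33 for replicates 2, 4 and 6. The test of the difference between those differences gave 0.73 on the log2 scale, with a limma adjusted p = 0.345 over 1734 probes. In this test limma called 0% of probes, and 152 of 1734, or 8.77%, had an unadjusted p under 0.05. miR-210-3p was among them, with a limma unadjusted p of 0.0022. The sign pattern of all 6 pairs was found in 61 probes (3.52%) and its mirror image in 27 (1.56%). Groups without overlap in both sets of positions were found in 13 probes with the order of miR-210-3p (0.75%) and in 4 with the opposite order (0.231%). Replicate number and position cannot be told apart here.

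The size of this position difference depends on the scaling. Without normalisation between arrays, the log2 difference of miR-210-3p was 0.58 at positions 1 and 2 and -0.16 at positions 3 and 4, where 2 of 3 pairs were lower. On the authors' globally normalised intensities it was 0.65 and 0.11, so the means were no longer in opposite order, although 2 of 3 pairs at positions 3 and 4 were lower. For miR-210-5p the difference was -0.23 at positions 1 and 2 and -0.13 at positions 3 and 4. The arm ratio differed by 0.69 at positions 1 and 2, with no overlap, and by -0.14 at positions 3 and 4, with overlap (limma adjusted p of the interaction = 0.475, with 8.25% of hairpins at an unadjusted p under 0.05).

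**Figure D2:**
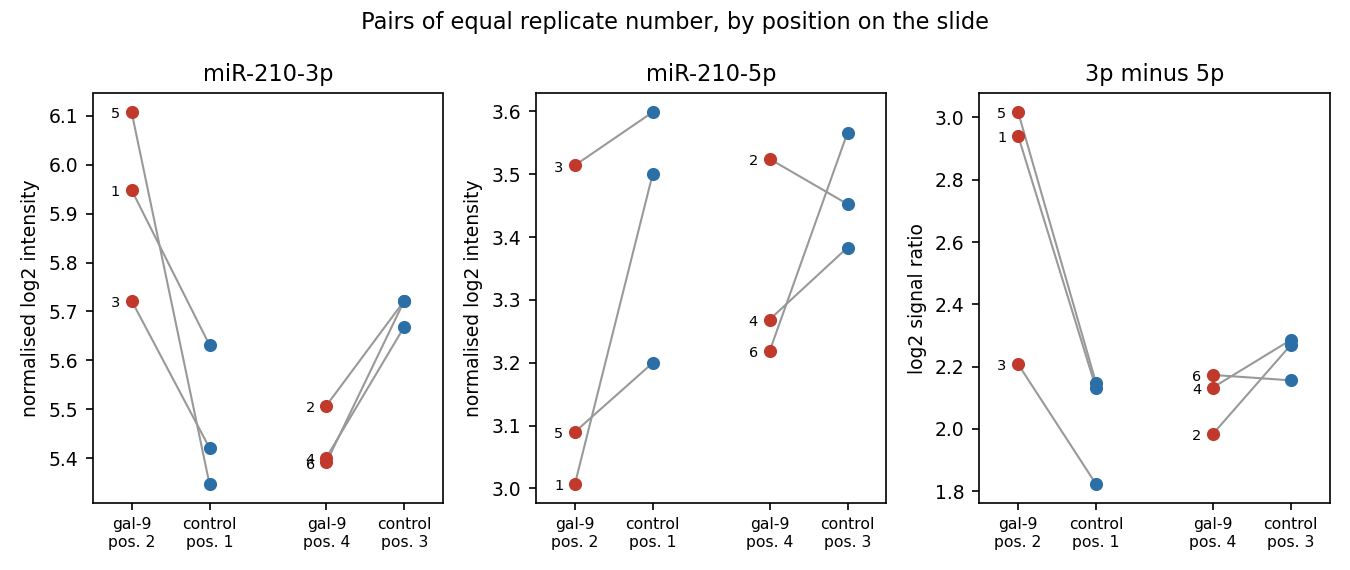
Normalised log2 intensity of miR-210-3p (left) and miR-210-5p (middle) and the log2 signal ratio of the arms (right), with galectin-9 arrays (red) left of their control arrays (blue). Grey lines join equal replicate numbers, and miR-210-3p is higher with galectin-9 in 3 of 3 pairs at positions 1 and 2 and lower in 3 of 3 at positions 3 and 4.

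The SD of miR-210-3p was 0.30 on galectin-9 and 0.16 on control arrays. The 10 probes nearest to it in brightness had SDs of 0.09 to 0.46 (median 0.15) on galectin-9 and 0.06 to 0.35 (median 0.15) on control arrays. On galectin-9 arrays 9 of these 10 varied less than miR-210-3p, and on control arrays 6 did. For miR-210-5p, with SDs of 0.21 and 0.15, the counts were 7 on galectin-9 and 1 on control arrays.

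The probes whose levels ran most like miR-210-3p over the 12 arrays were miR-1273e (r = 0.84), miR-222-3p (0.81), miR-92b-3p (0.77), miR-6889-3p (0.76) and miR-612 (0.75). miR-222-3p, which targets the cell cycle inhibitor CDKN1B, had r = 0.94 within galectin-9 and 0.66 within control arrays. The most opposite were miR-4701-5p (-0.85), miR-6514-3p (-0.83) and miR-6866-3p (-0.79), all dim, with mean log2 levels of 2.27 to 2.78. For miR-210-5p the closest were miR-371a-5p (0.73), miR-6754-3p (0.72), miR-4513 (0.70), miR-3682-3p (0.70) and miR-3621 (0.69). The most opposite to it were miR-187-3p (-0.75), miR-31-5p (-0.72) and miR-3130-5p (-0.68). These are the ends of 886 correlations over arrays that share slides, and no p is given.

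miRNAs described as raised by low oxygen gave the setting for the hypoxia marker. Of 29 listed without miR-210 itself, 28 were tested, and miR-155-5p was not. None passed toward higher or lower levels in limma (0 of 28, against 0.173% of all probes). At an unadjusted p under 0.05, 4 were higher and 0 lower, or 14.3% of the list, against 12.9% of all 1734 probes (4.21% higher and 8.65% lower). This count depends on the scaling. In either direction it was 13 of 28 on the authors' globally normalised intensities, against 237 of all 1734 probes (13.7%). It was 12 of 28 with normexp background correction, against 240 of 1734 (13.8%). With a common floor it was 9 of 28, against 170 of 1734 (9.8%). Without normalisation between arrays it was 7 of 28, against 108 of 1734. The share of the list was above that of all probes in each of these settings, and directions were not counted there. On the globally normalised scale the median log2 difference of probes detected on all arrays was 0.25. The same median was 0.08 without normalisation between arrays and -0.005 with normexp. In all the settings named above the count also rose for the list lowered by low oxygen, given below. As reported, the median log2 difference of the list was 0.02, with 14 above and 14 below 0, against a median of -0.07 over all probes. Undetected values were set to array floors, which ran from -0.33 on galectin-9 replicate 1 to 2.44 on control 6. Among probes detected on all arrays, 13 of 24 list members were above 0, with a median of 0.08. Of all 891 such probes, 398 were above 0, with a median of -0.02.

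The 5 with the smallest p all had differences above 0, and none passed. miR-21-5p, an abundant miRNA that targets PDCD4, differed by 0.42 on the log2 scale (adjusted p = 0.204). miR-192-5p, a p53-induced miRNA, differed by 0.40 (adjusted p = 0.219) and miR-135b-5p by 0.45 (adjusted p = 0.294). miR-195-5p of the miR-15/16 seed family differed by 0.34 (adjusted p = 0.357) and miR-424-5p of the same family by 0.18 (adjusted p = 0.389). Each of these 5 was higher in 6 of 6 pairs except miR-195-5p, which was higher in 5.

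A second list held miRNAs described as lowered by low oxygen, mostly from the miR-17 cluster. Of the 8 tested, 0 passed in limma (against 0.173% of all probes), and 3 were higher and 0 lower at an unadjusted p under 0.05 (against 4.21% and 8.65% of all probes). In either direction this count was 6 of 8 on the authors' globally normalised intensities and 6 of 8 with normexp. It was 5 of 8 with a common floor and 5 of 8 without normalisation between arrays. The counts of all probes in these settings are given above, and the share of the list was the higher in each. As reported, the log2 difference was above 0 for 7 of the 8, against 635 of all 1734 probes. Their median was 0.17, against -0.07 over all probes. Among probes detected on all arrays, 6 of 6 list members were above 0, against 398 of 891. The medians there were 0.17 and -0.02. Most members of this list are from the same cluster, so they are not independent of each other. The smallest p values belonged to miR-19a-3p of the miR-17 cluster (0.39, adjusted p = 0.141), miR-204-5p (0.74, adjusted p = 0.276) and miR-17-5p (0.28, adjusted p = 0.300). Next came miR-20a-5p (0.15, adjusted p = 0.440) and miR-92a-3p (0.19, adjusted p = 0.444). miR-204-5p was detected on 11 of 12 arrays, so its value rests partly on the floor for undetected probes. miR-19a-3p passed when only the 891 probes detected on all arrays were tested (limma adjusted p = 0.0289). In that setting 9 of the 891 probes passed.

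**Figure D3:**
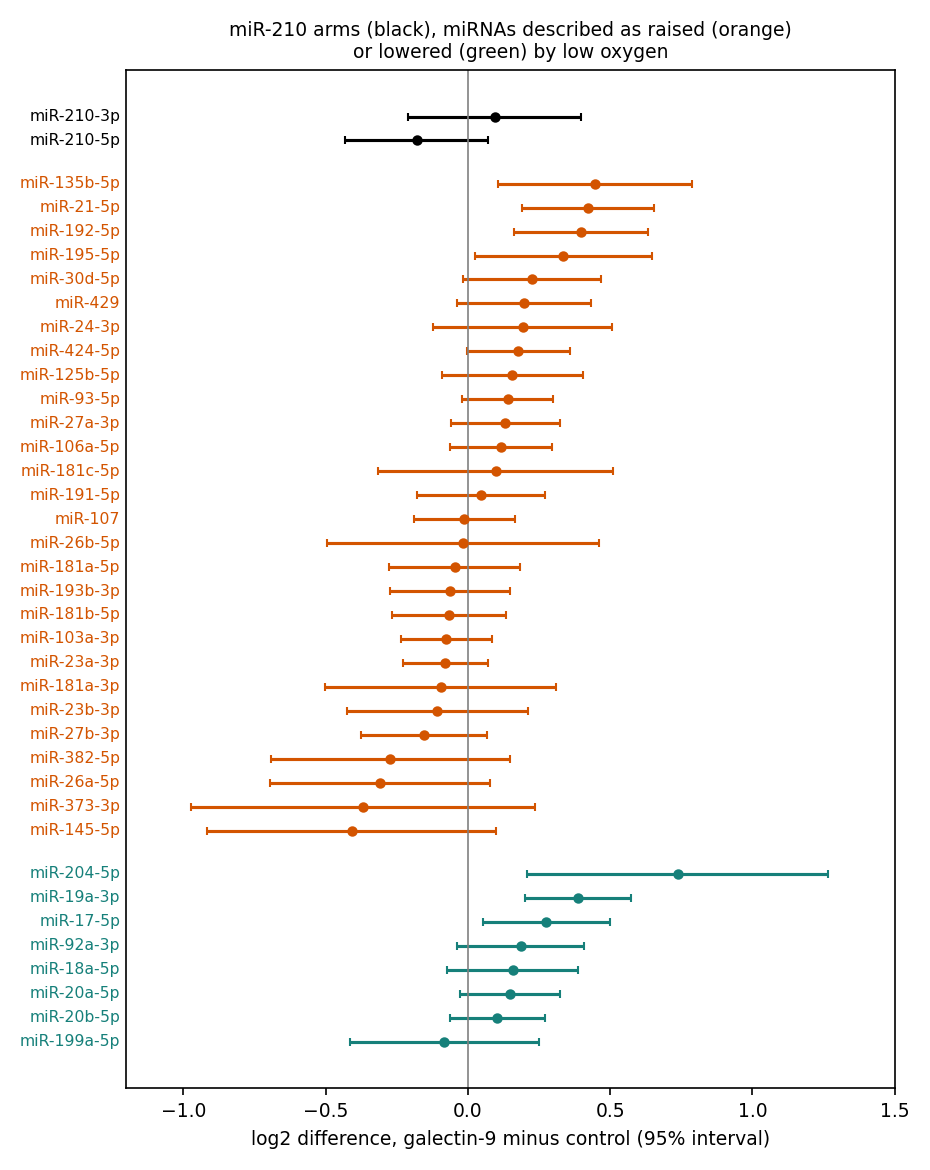
Log2 difference, galectin-9 minus control, with 95% interval, for the miR-210 arms (black), 28 miRNAs described as raised by low oxygen (orange) and 8 described as lowered by it (green). Both miR-210 intervals include 0, and miR-204-5p has the largest difference of the 2 lists, 0.74.

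The hairpins MIR6743 and MIR6744 lie within 1 Mb of MIR210 in the RefSeq annotation, and none of their arms passed the test. For MIR6743, at chr11:209336-209406, the log2 difference of miR-6743-5p was 0.10 (limma adjusted p = 0.807). The log2 level of miR-6743-3p was 4.17 ± 0.54 in galectin-9 and 4.04 ± 0.66 in control cells (limma adjusted p = 0.886). miR-6743-3p also shares a run of 10 bases with miR-210-5p, the longest run that any other mature name shares with either arm. For MIR6744, at chr11:1256605-1256670, the differences were -0.27 for miR-6744-5p (limma adjusted p = 0.605) and -0.40 for miR-6744-3p (limma adjusted p = 0.461), both dim. miR-6744-5p was detected on 11 arrays, so its value rests partly on the floor for undetected probes. miR-4749-3p, which shares seed bases 2 to 7 with miR-210-5p, was detected on 10 arrays and had 1.61 ± 0.43 in galectin-9 and 2.28 ± 0.28 in control cells (SD, n = 6 each, limma adjusted p = 0.256). These levels also rest partly on the floor, which differs from array to array.

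**Figure D4:**
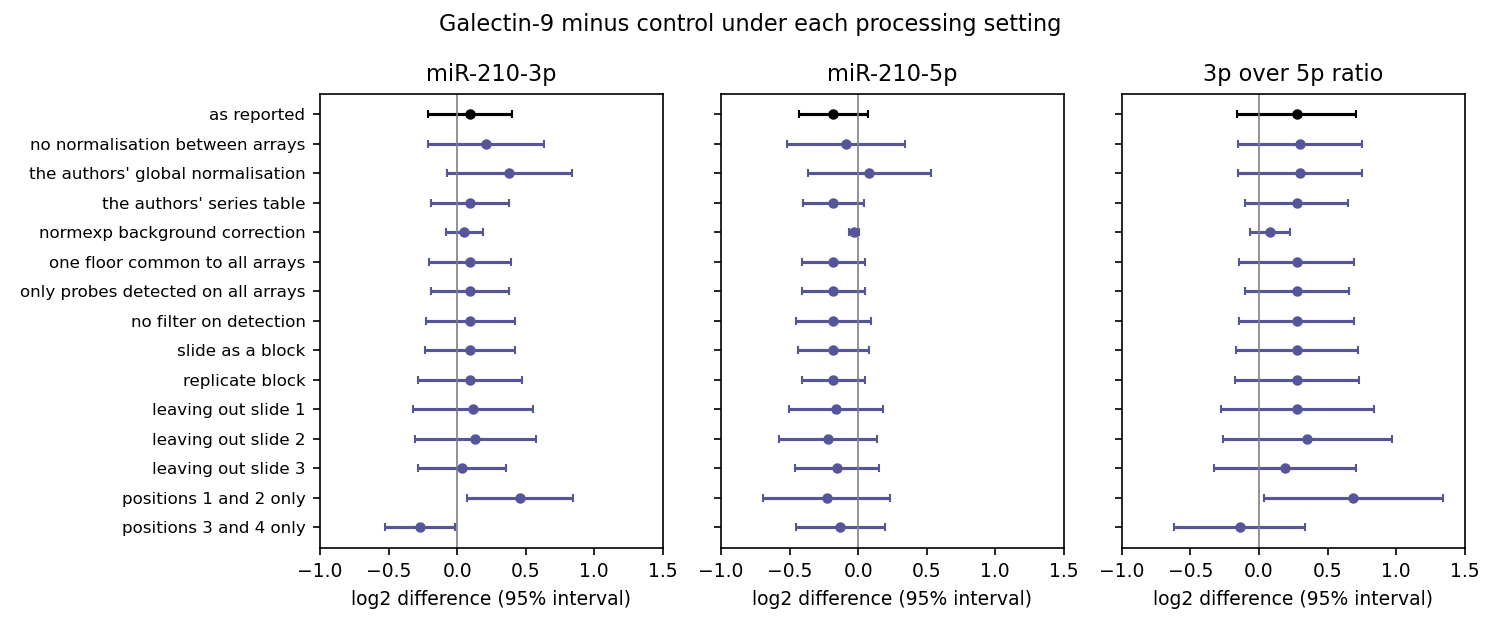
Log2 difference, galectin-9 minus control, with 95% interval, of miR-210-3p (left), miR-210-5p (middle) and the arm ratio (right) under the reported setting (black) and 14 others (blue). The intervals include 0 except for miR-210-3p at positions 1 and 2 (0.46) and 3 and 4 (-0.27) and the arm ratio at positions 1 and 2 (0.69).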

How the data were processed

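Per the labels' protocols, Cy5-labelled total RNA was run on Toray's 3D-Gene platform. The deposited array files hold linear intensity values: raw, background-subtracted and globally normalised, per the file headers. Comparison of the columns showed that the background equals the mean of 320 blank spots trimmed by 5% at each end, and that only probes more than 2 SD of the blanks above it are listed. The scanner is not named in these sources. The authors' deposited series table holds quantile-normalised intensity for 891 probes.

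Here background was taken from raw intensity, the 2565 human probes were quantile-normalised (limma 3.58.1, R 4.3.3), values below the limit were set to the array's lowest detected value, and log2 was taken. Not used were 6 human spots whose quality mark was not good. Probes detected on at least 6 of 12 arrays (1734) were tested with lmFit and eBayes, two-sided, at a Benjamini-Hochberg adjusted threshold of 0.05. The arm ratio is the log2 level of the 3p minus that of the 5p arm, fitted alike over hairpins. Only the limma fit was tested on simulated data, with independent noise per probe and array and without normalisation, floors or shared pair effects. The hairpin was folded with ViennaRNA 2.7.2. Slide and position were read from codes in the array file names, whose meaning the labels do not give. Equal replicate numbers were taken as pairs, since deviations from the group means correlated at 0.171 to 0.527 in 6 of 6 pairs; paired arrays also lay side by side on a slide. The alternatives changed normalisation, background, floor, filter, block and the arrays used. The normexp alternative added an offset of 50 to the intensities. Named are the arms, the 5 most and 3 least alike probes per arm, seed sharers, hairpins within 1 Mb, and the 5 smallest p of each hypoxia list. Other probes are named as background or as a marker check, after their values were seen. The members and lists were chosen with earlier results of these data known. The number of arrays limits the precision.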

Additional observations from a re-analysis of the deposited data

Results flagged for a closer look

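The difference between galectin-9 and control cells in miR-210-3p lay in opposite directions at positions 1 and 2 and at positions 3 and 4, as read from the file names, higher in 3 of 3 pairs and lower in 3 of 3. The 2 differences were 0.73 apart on the log2 scale (limma adjusted p = 0.345 over 1734 probes). With normexp background correction and an offset of 50, the distance was 0.36 for miR-210-3p (limma adjusted p = 0.0558). For the arm ratio it was 0.37 (limma adjusted p = 0.0479, the setting with the smallest value among 5). At the ratio's unadjusted limma p of 0.00061, an adjusted p this low requires that other hairpins passed as well. Their number was not counted. The offset is added to each intensity and narrows log2 differences. Between galectin-9 and control cells, miR-210-5p differed by -0.03 with it and by -0.18 as reported. The normexp distances are therefore not on the scale of the 0.73 above. On the authors' globally normalised intensities the distance was 0.55 for miR-210-3p (limma adjusted p = 0.924). Replicate number and slide position cannot be told apart in this layout.

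The normalised log2 arm ratio of control 3 was 1.82, apart from the other control arrays, which lay between 2.13 and 2.29. Its ratio of background-subtracted signals, 3.36, was not apart from the others. Chance marks about 5% of groups in this way, and 12 groups were compared.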

How the results depend on the processing

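Under 30 other settings, the difference between galectin-9 and control cells did not pass for miR-210-3p, miR-210-5p or their ratio, with adjusted p from 0.413 to 1 for the 3p arm outside positions 3 and 4, from 0.238 to 0.988 for the 5p arm and from 0.373 to 0.865 for the ratio. The position interaction of the ratio, examined after the values were seen, passed with normexp (limma adjusted p = 0.0479). Other hairpins passed in that test as well, though their number was not counted, and its offset of 50 narrows log2 differences. The sign turned in 3 cases: miR-210-5p with the authors' global normalisation (0.082), and, in a split chosen after seeing the data, miR-210-3p (-0.27, adjusted p = 0.408) and the ratio (-0.14) at positions 3 and 4. The median log2 difference of all tested probes was 0.23 with global normalisation and -0.07 as reported, and relative to that median miR-210-5p lay at -0.15 there and at -0.11 as reported. Leaving out 1 array at a time gave 0.01 (without galectin-9 replicate 5) to 0.15 for miR-210-3p, -0.23 to -0.13 for miR-210-5p, 0.15 to 0.36 for the ratio, 2 to 5 called probes and 0 called members of either hypoxia list. With the replicate block, the differences were the same, 0.09, -0.18 and 0.27, with limma adjusted p of 0.804, 0.414 and 0.581, and 1 probe was called in place of 3. The block changed no other call. The number of called probes was 19 with normexp, 9 with a common floor, with probes detected on all arrays and with the authors' series table, 6 in an unmoderated test, 5 with slide as a block and 5 without galectin-9 replicate 1. It was 0 in limma without slide 1, 2 or 3, where 183, 146 and 147 had an unadjusted p under 0.05, and 0 within positions 1 and 2 (183) or 3 and 4 (207), which leave fewer arrays. Called members of the list lowered by low oxygen rose to 1, miR-19a-3p, with normexp, a common floor, probes detected on all arrays, the series table and the unmoderated test. Of the raised list 2 passed with normexp, miR-21-5p (0.41) and miR-23a-3p (-0.08). The causes were not tested. Of the miR-210 values, that of miR-210-5p on control 6 lay closest to background in SD of the blanks (5.20).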
